A study of Mus musculus with 4 samples.

Results

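The members were 9 secreted regulators of bone morphogenetic protein (BMP) signaling, chosen by gene symbol from the 33696 genes of the deposited count matrices. They were 5 ligands, Bmp2, Bmp4, Bmp5, Bmp6 and Bmp7, and 4 extracellular antagonists, Grem1, Nog, Sostdc1 and Bmper. All 9 were matched and all 9 were detected in all 4 libraries. Their identifiers were ENSMUSG00000027358 (Bmp2), ENSMUSG00000021835 (Bmp4), ENSMUSG00000032179 (Bmp5), ENSMUSG00000039004 (Bmp6), ENSMUSG00000008999 (Bmp7), ENSMUSG00000074934 (Grem1), ENSMUSG00000048616 (Nog), ENSMUSG00000036169 (Sostdc1) and ENSMUSG00000031963 (Bmper).

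BMP ligands are secreted dimers that bind paired type I and type II serine/threonine kinase receptors on nearby cells, and the receptors phosphorylate Smad1, Smad5 and Smad9, which enter the nucleus with Smad4 and switch on genes such as Id1, Id3 and Msx2. Antagonists outside the cell bind the ligands and keep them from the receptors. In the regenerating mouse digit tip, BMP signaling is needed for the amputated terminal phalanx to regrow, and in skin it sets the resting phase of the hair follicle and shapes the nail.

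The data were single-cell 3′ RNA counts from hindlimb digits of female C57BL/6 mice (C57BL/6J in the study's methods) aged 6 to 8 weeks with no genetic change, with the digits of 10 mice pooled in each library. The digits had been amputated through the terminal phalanx and were collected during the early bone-loss phase of regeneration. By the study's methods they were cut for cell preparation at proximal P2, the phalanx next to the terminal one. Each library thus also held tissue proximal to the amputation. The wording of the methods does not settle whether an unamputated digit was included. In the SAR131675 library, mice ate chow with 30 mg/kg SAR131675, a small-molecule inhibitor of the lymphatic growth factor receptor VEGFR3, for 8 days by the series' design text (by the methods, from 5 days before amputation to the end of the study), and the control diet library came from mice on matched chow without it. In the LNR library (lymph node removal), the inguinal and popliteal nodes of that limb had been taken out, and the sham library came from limbs on the opposite side. Each condition had 1 library and each library was its own batch, so condition and library cannot be told apart, no difference between conditions was tested, and every interval is a 95% interval that covers counting error only.

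After limits on genes, UMIs and mitochondrial reads, 29076 cells (SAR131675), 24030 (control diet), 19827 (LNR) and 20669 (sham) were kept, with median depths of 11316, 10712, 5725 and 5851 UMIs per cell. SAR131675 and control diet are called the first pair below, and LNR and sham the second. The matrix headers named Cell Ranger 8.0.1 for the first pair and 6.1.2 for the second, so levels are set side by side across the pairs and their differences are not read. A total of 25 cell groups occurred in all 4 libraries, 22 named by markers and 3 only by a leading gene, and each name stands for cells like that type. Unnamed clusters held 20% (SAR131675), 23.7% (control diet), 13.4% (LNR) and 15.8% (sham) of the cells. The kept cells of SAR131675 and control diet shared 210 barcodes, and those of LNR and sham 101, whereas a library of the first pair and one of the second shared 0 to 2.

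The unit throughout is CPM, the UMIs of a gene per 1000000 UMIs of all genes in the same cells. Clusters were made without the 9 members and without the other BMP pathway genes, but the rule that named the clusters was set after member values per cluster had been seen. Values of different genes are not compared with each other, since 3′ capture differs from gene to gene.

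Each member had its own set of cell types, and no class was highest for all of them. Among the 25 groups, papilla and nail mesenchyme, the cells beneath follicle and nail, was highest in each of the 4 libraries for Bmp4 and Bmp7, osteoblasts for Bmp5, Nog and Bmper, and outer follicle keratinocytes for Grem1. For Bmp2, Bmp6 and Sostdc1 the highest group differed between libraries. The heatmap of all classes gives the levels in each pair of libraries.

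**Figure D1:**
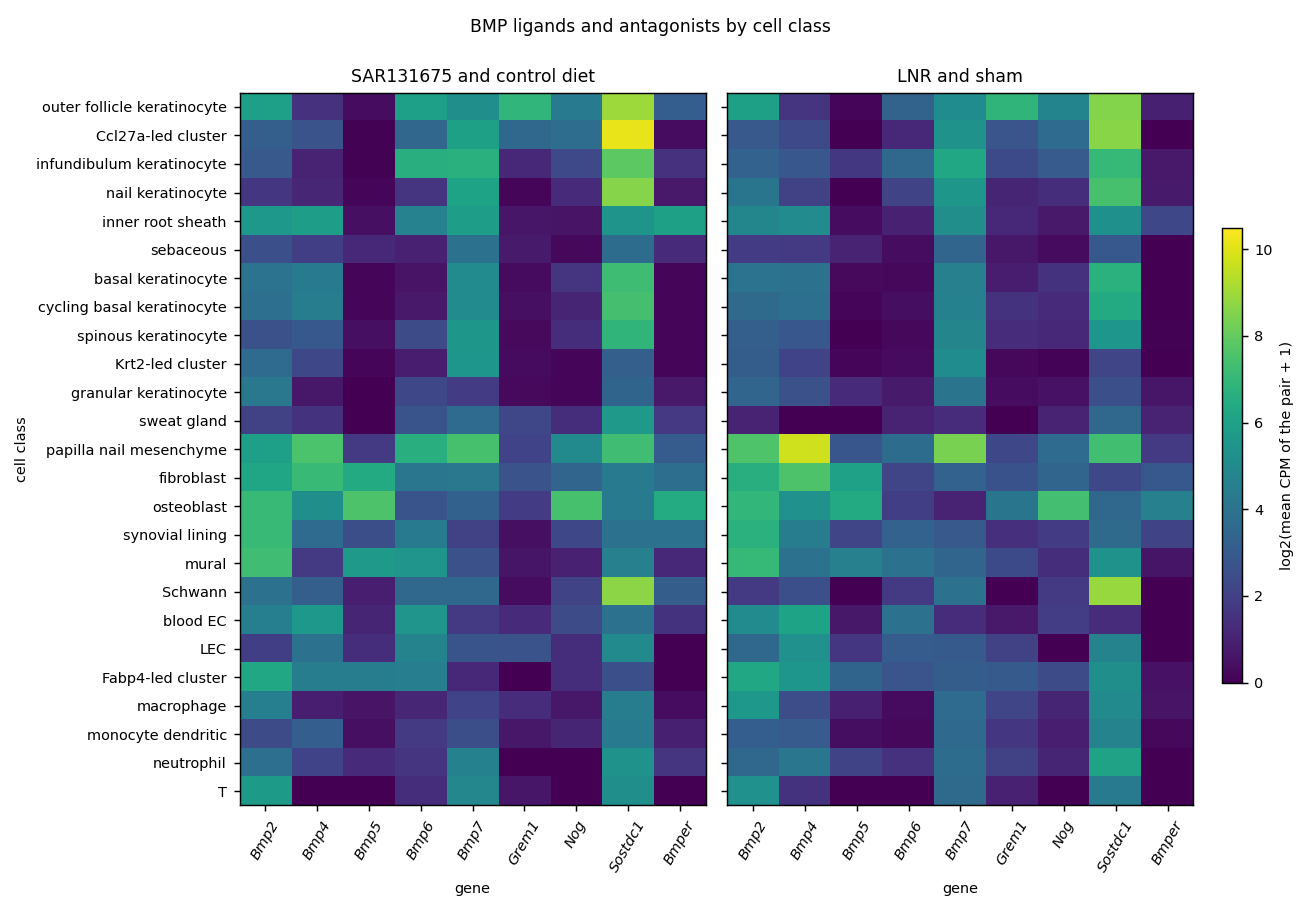
Each cell of the 2 heatmaps gives log2(CPM + 1) of a member (columns) in a cell class (rows), the CPM being the mean of the 2 libraries of the pair named above the panel. The column of Grem1 is brightest in outer follicle keratinocytes, whereas Bmp2 and Bmp7 are spread over many rows.

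Bmp4, a ligand of the dermal papilla and of limb mesenchyme, was highest in papilla and nail mesenchyme. It reached 162.5 CPM in SAR131675 and 207.6 in control diet, and 820.7 in LNR and 873.4 in sham. The class differed in makeup between the pairs. The cluster of the first pair was led by Gpc5, Rspo3 and Col11a1 and that of the second by a, Igfbp3 and Crabp1. Fibroblasts came second in each library, with 111.4, 155.5, 192.4 and 183.9 CPM in SAR131675, control diet, LNR and sham, and held 43.3% to 58.3% of all Bmp4 UMIs. Fibroblasts and the next class, blood endothelium at 34.69 to 67.53 CPM, did not overlap over the 4 libraries. Among fibroblast clusters, the one led by Dkk2 and Crabp1 stood highest, at 234 and 340.2 CPM in SAR131675 and control diet, and its counterpart led by Mfap4, Dkk2 and Crabp1 at 485.9 and 448.2 CPM in LNR and sham. In the 4 immune classes (macrophages, monocytes and dendritic cells, neutrophils, T cells) Bmp4 lay between 0 and 20.7 CPM.

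Bmp7, a ligand of epithelia and of the papilla, shared its leading class with Bmp4. Its level there was 163.3 CPM in SAR131675, 183.2 in control diet, 342.3 in LNR and 331.1 in sham, above every other one of the 25 groups in all 4 libraries. It was also spread over the epithelium. Infundibulum keratinocytes, which line the mouth of the follicle, came second at 90.08, 112, 80.63 and 76.6 CPM, and spinous keratinocytes held the most of its UMIs, 13.4% to 20.5% of the total, at only 25.34 to 49.84 CPM. With every cell thinned to 1500 UMIs, 23.7% and 24.1% of papilla and nail mesenchyme cells had a Bmp7 UMI in SAR131675 and control diet, and 34.5% and 33.7% in LNR and sham. In immune cells Bmp7 stayed between 2.948 and 29.02 CPM.

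Bmp2, an inducer of bone and cartilage formation, had no single main source. Its level was 147, 164.2, 138.4 and 118.9 CPM in mural cells (pericytes and smooth muscle) of SAR131675, control diet, LNR and sham, and 128.3, 141, 119.6 and 128.7 CPM in osteoblasts. Papilla and nail mesenchyme was highest of the 25 groups in LNR and sham, at 178 and 205.5 CPM, and mural cells in SAR131675 and control diet. The order among mural cells, osteoblasts and synovial lining was not separated. Fibroblasts held the most of its UMIs, 20% to 27.2%, at 64.81 to 96.26 CPM. Groups found in 1 pair only were higher still. In the second pair, chondrocytes reached 256.1 (LNR) and 298.5 CPM (sham) and tendon cells 241.9 and 236. In the first pair, an unnamed cluster led by Cytl1 and Chad, genes of cartilage and connective tissue, reached 252.7 (SAR131675) and 280.9 CPM (control diet). In immune classes Bmp2 lay between 2.684 and 60.18 CPM, and free RNA was not separated from expression there.

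Bmp5, a ligand of the same subgroup as Bmp6 and Bmp7, lay mostly in mesenchyme. Osteoblasts had 184.9 CPM in SAR131675, 192 in control diet, 80.35 in LNR and 87.62 in sham. Fibroblasts had 81.73, 89.25, 61.82 and 65.68 CPM and held 64.2% to 81.4% of its UMIs, the largest share for any ligand in any class. Osteoblasts lay above fibroblasts in each of the 4 libraries. Fibroblasts stood clear of mural cells (22.25 to 53.4 CPM), and immune classes lay at or below 5.645 CPM.

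Bmp6, known outside skin as the main regulator of hepcidin in the liver, was found in epithelium, mesenchyme and vessels. In the first pair it reached 108 and 82.75 CPM in papilla and nail mesenchyme, 69.53 and 117.9 in infundibulum keratinocytes and 53.95 and 64.89 in outer follicle keratinocytes (SAR131675 and control diet). Within the outer follicle class it was highest in the cluster led by Krt6a, at 175.8 and 264.7 CPM. In the second pair the same classes had 12.56 and 11.42, 12.29 and 9.134, and 8.115 and 10.28 CPM (LNR and sham). The highest groups of that pair were mural cells, with 16.03 and 12.15 CPM from 49 and 32 UMIs, and blood endothelium, with 13.87 and 14.33 CPM from 23 UMIs in each library. The counting intervals of these groups and of papilla and nail mesenchyme overlapped. In the first pair mural cells had 40.4 and 45.59 CPM and blood endothelium 31.55 and 55.52 CPM. Over all cells the level was 15.15, 15.96, 3.29 and 2.676 CPM in SAR131675, control diet, LNR and sham. Software version, depth, cell barcodes, batch and treatment differed together between the pairs and cannot be told apart here.

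Nog, which encodes noggin, a high-affinity binder of Bmp2, Bmp4 and Bmp7, was highest of the 25 groups in osteoblasts. The level there was 159.4, 186.8, 153.4 and 174.2 CPM in SAR131675, control diet, LNR and sham, and every other one of the 25 groups lay at or below 36.93 CPM. Osteoblasts made up a small share of the cells, yet held 14.8% to 19.9% of Nog UMIs. Outer follicle keratinocytes held more, 20.8% to 27.5%, at 14.46, 25.15, 26.86 and 23.8 CPM. Fibroblasts held 16.6% to 21.5%, at 8.974 to 10.8 CPM. Immune classes lay between 0 and 1.738 CPM. With cells thinned to 1500 UMIs, 18.7% to 22.8% of osteoblasts had a Nog UMI.

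Grem1, which encodes gremlin 1, an antagonist of Bmp2 and Bmp4, was high mainly in the outer follicle, the sheath that surrounds the hair. Outer follicle keratinocytes had 91.41 CPM in SAR131675, 150.4 in control diet, 120.5 in LNR and 113.6 in sham, and held 82.5%, 87.8%, 69.2% and 65.2% of all Grem1 UMIs. The next of the 25 groups, osteoblasts, reached at most 17.31 CPM, from 16 UMIs in sham. Chondrocytes, found in the LNR and sham pair only, had 45.02 CPM in sham from 27 UMIs and 9.188 CPM in LNR from 8 UMIs. Immune classes lay between 0 and 5.368 CPM. Within the outer follicle the gene was uneven. In the first pair it reached 177.8 and 259.3 CPM in the cluster led by Il31ra and Gm973 and 122.5 and 170.6 in that led by Lgr5 and Gm973, but only 16.18 and 12.56 in that led by Slc7a8 (SAR131675 and control diet). In the second pair the cluster led by Cck, Lhx2 and Krt15 had 194.1 and 179.4 CPM and that led by Fam13a and Lgr5 43.79 and 39.19 CPM (LNR and sham).

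Sostdc1, also called ectodin or wise, an antagonist of BMP and Wnt signaling in follicles and teeth, was found in many epithelial classes. A cluster led by Ccl27a, a keratinocyte chemokine, that matched no marker list had 1211 CPM in SAR131675 and 1076 in control diet, and 405.5 in LNR and 395.2 in sham. Outer follicle keratinocytes had 506.8, 478.5, 353.8 and 385.7 CPM and held 22.2% to 25.7% of its UMIs. Schwann cells, the glia of nerves, had 391.2, 433.5, 448.9 and 480.5 CPM, a level like that of the outer follicle. The Ccl27a-led cluster was highest in SAR131675 and control diet, and Schwann cells, from 92 and 100 UMIs, in LNR and sham. On the mean over the 4 libraries nail keratinocytes followed, with 377.3, 387.7, 195.1 and 151.9 CPM. In LNR, however, papilla and nail mesenchyme lay above them at 203.1 CPM. Immune classes, which should lack the gene, had 15.6 to 69.62 CPM, so levels within or below that range elsewhere were not read as expression. At own depth 5.74% of macrophages in SAR131675 and 3.73% in control diet had a Sostdc1 UMI (median depths 7209 and 7098 UMIs), against 91.9% and 91.1% of the cells of the Ccl27a-led cluster (9294.5 and 8973.5 UMIs). After thinning to 1500 UMIs the shares were 1.88% and 1.85% against 72.9% and 68.7%.

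Bmper, a relative of chordin that binds BMPs outside the cell, was highest of the 25 groups in osteoblasts. They had 98.86, 76.1, 23.74 and 21.63 CPM in SAR131675, control diet, LNR and sham, and held 6.95% to 9.9% of its UMIs. On the mean over the 4 libraries fibroblasts held the most of its UMIs among these groups, 19.8% to 48.8%, at 5.052 to 15.4 CPM. The inner root sheath class also covered any cluster that matched the hair and nail plate markers. Its cells had 59.83 and 64.17 CPM in the first pair and 3.744 and 3.972 CPM, from 14 and 15 UMIs, in the second. The Cytl1-led cluster of the first pair had 93.51 and 85.39 CPM, whereas chondrocytes of the second pair had 0 UMIs in both libraries. Over all cells Bmper had 7.537, 4.609, 1.981 and 1.341 CPM in SAR131675, control diet, LNR and sham.

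**Figure D2:**
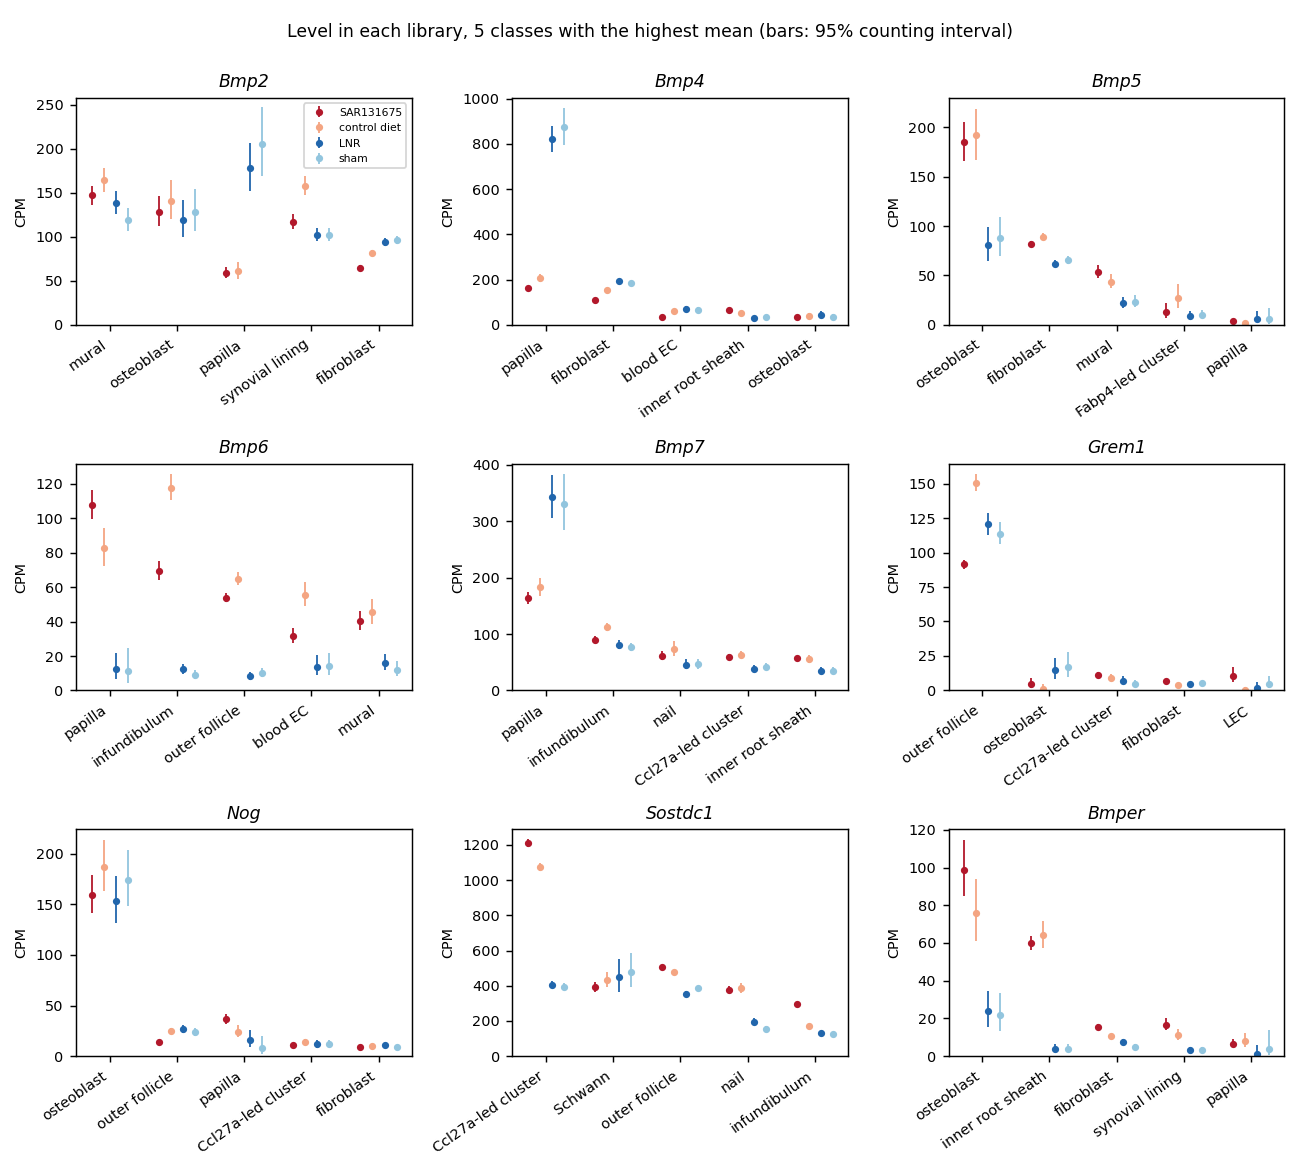
Each panel gives the CPM of a member in the 5 classes with the highest mean level, 1 point per library, with the 95% counting interval as a bar. Nog in osteoblasts and Grem1 in outer follicle keratinocytes stand above their other classes in all 4 libraries.

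The genes most like each member over the 25 classes were listed by the correlation of log2(CPM + 1), as a description, since classes share libraries. Bmp4 was closest to Gm15222 (r = 0.927), a gene annotated on the opposite strand within the Bmp4 locus (GENCODE vM21 names), with 144 to 203 UMIs per library against 5495 to 8464 for Bmp4. It was followed by Pcdhgc4 and Tmem158. Bmp5 was closest to Srpx2, Angpt1 and C1ra (r = 0.929 to 0.941), Nog to Col8a2, Adamts3 and Igdcc4 (r = 0.854 to 0.912), and Bmper to Bmp8a, another BMP ligand (r = 0.908), then Pycr1 and Cpxm1. Bmp2 was closest to Map7d3, Msx1, a homeobox target of BMP signaling, and Rasl11a (r = 0.82 to 0.869). Bmp6 was closest to Adamts1, Tcf7l1 and Kalrn (r = 0.817 to 0.848), Bmp7 to Sp9, Meis1 and Tfap2a (r = 0.8 to 0.884), Grem1 to Il31ra, Gm53435 and Tekt2 (r = 0.853 to 0.868), and Sostdc1 to Vsnl1, Ucn2 and Adgrl3 (r = 0.824 to 0.829).

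The first comparison asked whether the members differed in digits after VEGFR3 inhibition. Over all kept cells, 1 of 9 members lay past 1.5-fold between SAR131675 and control diet, Bmper, at 7.537 against 4.609 CPM (log2 ratio 0.71, interval 0.61 to 0.81), where 6.79% of all genes tested did so in either direction. A gene was tested where the pair held at least 50 of its UMIs in the class. Sostdc1 followed, at 174.8 against 129.5 CPM (log2 ratio 0.43). The other 7 lay between -0.20 (Bmp4) and -0.04 (Bmp2) on the log2 scale. The Bmper difference over all cells came with a different number of inner root sheath cells, 1112 in SAR131675 and 413 in control diet, which held 36.2% and 25.1% of its UMIs. Within inner root sheath cells the level was 59.83 against 64.17 CPM, and within fibroblasts 15.4 against 10.72 CPM (log2 ratio 0.52, interval 0.31 to 0.73). Neither class value was stable, since with each library clustered alone the ratio was 0.76 in inner root sheath cells and -0.59 in fibroblasts.

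In the outer follicle, 2 antagonists were lower in SAR131675 per UMI of the class. The class held 3081 of 29076 kept cells in SAR131675 and 1908 of 24030 in control diet. Over all kept cells neither antagonist was past 1.5-fold. Of 8 members tested there, 0 were past 1.5-fold higher and 3 past it lower in SAR131675, Grem1, Nog and Bmp4, where 2.76% of all genes were past it higher and 3.26% lower (6.01% in either direction). Grem1 had 91.41 against 150.4 CPM, a log2 ratio of -0.72 (interval -0.80 to -0.64), on 2750 and 2404 UMIs. Nog had 14.46 against 25.15 CPM (log2 ratio -0.80, interval -0.998 to -0.60). Bmp4 had 1.429 against 2.253 CPM from 43 and 36 UMIs, inside its range in immune classes, and its interval, -1.33 to 0.02, held 0. Sostdc1 had 506.8 against 478.5 CPM in the same cells (log2 ratio 0.08, interval 0.04 to 0.12), and -0.23 with each library clustered alone. Under that setting Grem1 gave -1.06 and Nog -1.23.

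The makeup of the outer follicle class also differed. The leading genes given for its Il31ra-led and Krt6a-led clusters hold none of the outer follicle markers used here, so their fit to the class is uncertain. The Grem1-rich cluster led by Il31ra made up 33.7% of the class in SAR131675 and 42.2% in control diet, and the Grem1-poor cluster led by Slc7a8 21.7% and 17.3%. Within single clusters, an alternative added after seeing the data, the log2 ratio of Grem1 was -0.54 (interval -0.65 to -0.44) in the Il31ra-led cluster, -0.48 (-0.62 to -0.34) in the Lgr5-led cluster and -0.80 (-1.11 to -0.48) in the Krt6a-led cluster, but 0.36 (-0.13 to 0.89) in the Slc7a8-led cluster. The values of the Il31ra-led and Lgr5-led clusters were thus under 1.5-fold. Nog gave -0.74 (-1.01 to -0.47) in the Il31ra-led, -0.42 (-0.76 to -0.07) in the Lgr5-led and -0.10 (-0.90 to 0.76) in the Krt6a-led cluster. Sostdc1 was higher in SAR131675 in 3 of the 4 clusters, each by less than 1.5-fold, with 618.2 against 461 CPM in the Lgr5-led, 186.2 against 139 in the Slc7a8-led and 385.7 against 308 in the Krt6a-led cluster. In the Il31ra-led one, where it was highest, it had 810.8 against 781.3 CPM, an interval that held 0. Bmp2 was lower in SAR131675 in 3 of the 4 clusters, with 60.08 against 108.3 CPM in the Krt6a-led, 17.76 against 25.12 in the Slc7a8-led and 40.96 against 49.38 in the Il31ra-led cluster, and had 105.1 against 91.36 CPM in the Lgr5-led one. Its Slc7a8-led and Il31ra-led levels lay inside the range of immune classes, which reached 43.86 CPM in SAR131675 and 60.18 CPM in control diet. Free RNA was not separated from expression at those levels. For Bmp2 the Krt6a-led value alone was past 1.5-fold. Bmp6 gave -0.59 (-0.74 to -0.44) in the Krt6a-led cluster, also past 1.5-fold. It gave -0.53 (-0.80 to -0.26) in the Il31ra-led, -0.41 (-0.75 to -0.08) in the Lgr5-led and 0.30 (-0.09 to 0.71) in the Slc7a8-led cluster. For single clusters of a class the share of all genes past that fold was not computed.

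**Figure D3:**
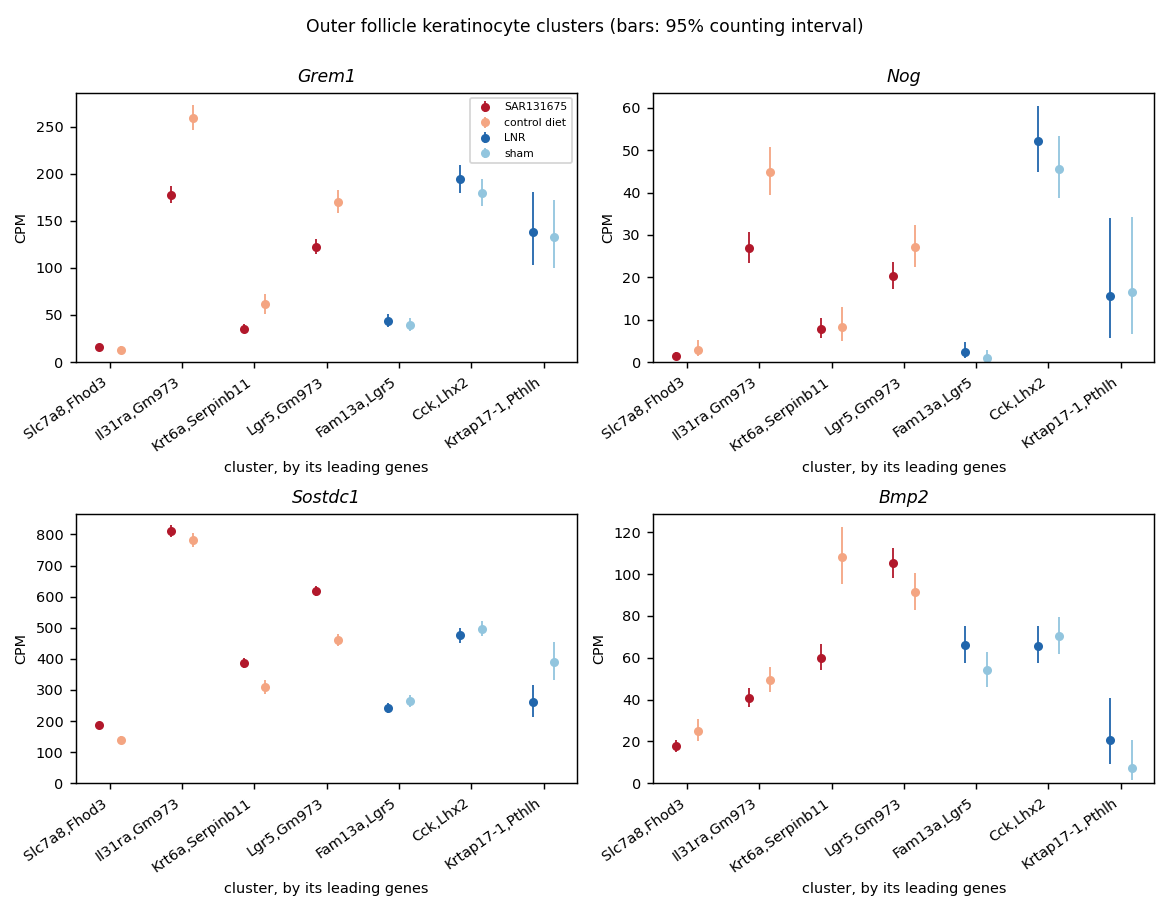
CPM of Grem1, Nog, Sostdc1 and Bmp2 in the clusters of the outer follicle class, 1 point per library with its 95% counting interval, for the SAR131675 and control diet pair and for the LNR and sham pair. Grem1 is lower in SAR131675 in 3 of its 4 clusters.

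In fibroblasts all 9 members were tested. Only Grem1 was past 1.5-fold, at 6.694 against 4.052 CPM (log2 ratio 0.72, interval 0.39 to 1.06), where 5.66% of all genes were. Immune classes of these libraries reached 0.976 and 2.106 CPM of Grem1. Most of these UMIs lay in the cluster led by Dkk2 and Crabp1, with 23.31 against 14.5 CPM. Bmp4 had 111.4 against 155.5 CPM (log2 ratio -0.48, interval -0.54 to -0.42), Bmp2 64.81 against 81.18 CPM (-0.32, interval -0.41 to -0.24), and Bmp5 81.73 against 89.25 CPM (-0.13, interval -0.21 to -0.05). These 3 ligands were thus lower in SAR131675 by less than 1.5-fold. In papilla and nail mesenchyme, Nog was past 1.5-fold higher in SAR131675, at 36.93 against 24.01 CPM (log2 ratio 0.62, interval 0.22 to 1.04), 1 of 7 members tested where 8.18% of all genes were past that fold. Bmp4 there was 162.5 against 207.6 CPM (log2 ratio -0.35), but 0.62 with each library clustered alone and -0.69 without upper limits on genes and UMIs. Bmp7 was 163.3 against 183.2 CPM and Bmp6 108 against 82.75 CPM.

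In infundibulum keratinocytes, 3 of 5 members tested were past 1.5-fold, against 5.75% of all genes. Bmp6 had 69.53 against 117.9 CPM (log2 ratio -0.76, interval -0.91 to -0.61), but -0.18 with each library clustered alone. Sostdc1 had 293.9 against 172 CPM (0.77, interval 0.68 to 0.87). Nog had 27 and 38 UMIs and an interval that held 0. In blood endothelium 4 of 5 members tested were past it, where 6.08% of all genes were. Bmp4 had 34.69 against 59.22 CPM (log2 ratio -0.77, interval -1.03 to -0.51) and Bmp6 31.55 against 55.52 CPM (-0.82, interval -1.09 to -0.54). Nog had 6.906 against 1.524 CPM from 44 and 7 UMIs, and Sostdc1 22.13 against 6.967 CPM, levels not read as expression because they lie within or below its immune range. In synovial lining 2 of 6 were past it, where 8.03% of all genes were, with Bmp6 at 11.61 against 25.38 CPM and Sostdc1 at 25.61 against 3.599 CPM, again within or below that range. In fibroblasts Bmp6 had 16.64 against 16.24 CPM, but single clusters went opposite ways. The cluster led by Dkk2 and Crabp1 had 27.65 against 16.96 CPM (log2 ratio 0.71, interval 0.38 to 1.04). The cluster led by Myoc and C3 had 6.797 against 9.798 CPM (-0.53, interval -0.89 to -0.17). The other fibroblast clusters tested had intervals that held 0. In the Cytl1-led cluster 3 of 9 members tested were past it, where 9.01% of all genes were. Bmp6 had 55.87 against 108.5 CPM there, and Grem1 12.16 against 4.173 CPM from 52 and 13 UMIs. Sostdc1 had 14.73 against 27.61 CPM, likewise within or below its immune range and not read as expression. Apart from the 3 classes that held the most UMIs of each member, the contrasts given here were chosen after their values were seen.

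Sostdc1 was higher in SAR131675 in basal keratinocytes (172.4 against 128.8 CPM), cycling basal keratinocytes (197.8 against 140.6) and spinous keratinocytes (127.8 against 101), each by less than 1.5-fold. In spinous keratinocytes 2 of 6 members tested were past 1.5-fold, both lower in SAR131675, where 5.86% of all genes were past it. They were Bmp6 (3.059 against 5.868 CPM, log2 ratio -0.94, interval -1.24 to -0.64) and Nog (1.204 against 1.916 CPM, -0.67, interval -1.18 to -0.17). Both SAR131675 levels lay inside the range of immune classes of that library, which reached 3.916 CPM for Bmp6 and 1.316 CPM for Nog. In the Ccl27a-led cluster, where it was highest, the levels were 1211 against 1076 CPM (log2 ratio 0.17, interval 0.13 to 0.21). It was also higher in cells that should not make it, at 65.27 against 16.33 CPM in neutrophils (50 and 6 UMIs), and 53.26 against 20.42 in T cells. Of all genes 30.5% were past 1.5-fold in neutrophils of this pair and 11.7% in T cells. In neutrophils a single cell gave 44% of the 50 UMIs. Mural cells had 37.8 against 7.747 CPM in this pair and 43.52 and 35.32 CPM in LNR and sham, where their cluster led by Acta2, Cnn1 and Myh11, genes of smooth muscle, had 126.8 and 82.07 CPM from 122 and 85 UMIs. Macrophages had 18.87 against 21.9 CPM, and inner root sheath cells were lower, at 28.11 against 56.65 CPM, where immune classes of the same libraries reached 65.27 and 22.87 CPM. The part of free RNA and of mixed droplets in the Sostdc1 differences was not tested.

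In osteoblasts, where Nog was highest, no member of the 6 tested was past 1.5-fold in this pair, where 10.1% of all genes were. Nog had 159.4 against 186.8 CPM (log2 ratio -0.23, interval -0.49 to 0.03), Bmp2 128.3 against 141 CPM, Bmp5 184.9 against 192 CPM and Bmper 98.86 against 76.1 CPM.

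The second comparison asked whether the members differed in digits of limbs without their draining nodes. Over all kept cells, 0 of 9 members were past 1.5-fold between LNR and sham, where 3.68% of all genes were. The share of all genes whose interval left 0 outside was not computed, so a count by that criterion is not read as a result about the members. The interval left 0 outside for 6 members, all higher in LNR. They were Bmper (1.981 against 1.341 CPM, log2 ratio 0.56), Bmp4 (45.36 against 36.48 CPM, 0.31), Bmp6 (0.30), Bmp5 (0.26), Bmp2 (44.12 against 37.54 CPM, 0.23) and Nog (0.22). LNR held 4287 fibroblasts and sham 3781. Within fibroblasts Bmp4 had 192.4 against 183.9 CPM, Bmp2 93.72 against 96.26 and Bmp5 61.82 against 65.68. A cluster led by Krt71, an inner root sheath marker, held 394 sham cells and 4 LNR cells and lay outside every named class. The LNR and sham values of inner root sheath cells may therefore cover only part of that type. Without the Krt71-led cluster, a setting added after seeing the data, the ratios over all cells were 0.54 for Bmper, 0.30 for Bmp4 and 0.21 for Bmp2.

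In outer follicle keratinocytes 0 of 6 members tested were past 1.5-fold, where 2.74% of all genes were. Grem1 had 120.5 against 113.6 CPM and Nog 26.86 against 23.8 CPM, and both intervals held 0. With each library clustered alone these ratios were -0.61 and -0.80. Sostdc1 had 353.8 against 385.7 CPM (log2 ratio -0.12, interval -0.20 to -0.05). The smallest cluster of the class was led by Krtap17-1, Pthlh and Rflnb, none of them an outer follicle marker used here. Its fit to the class is uncertain. The leading genes given for the Il31ra-led, Krt6a-led and Cck-led clusters hold none of those markers either, so the same doubt applies to them. In the Krtap17-1-led cluster Sostdc1 had 259.9 against 390.7 CPM (log2 ratio -0.59, interval -0.96 to -0.22) from 100 and 165 UMIs, past 1.5-fold. In fibroblasts 1 of 9 was past it, Bmper, at 7.763 against 5.052 CPM (log2 ratio 0.62, interval 0.21 to 1.04) from 138 and 76 UMIs, where 2.66% of all genes were. Grem1 in the fibroblast cluster led by Mfap4, Dkk2 and Crabp1 had 22.62 against 34.62 CPM (log2 ratio -0.61, interval -1.13 to -0.11) from 58 and 78 UMIs. Other fibroblast clusters held rises past 1.5-fold in LNR. Bmp4 had 65.83 against 41.36 CPM (log2 ratio 0.67, interval 0.235 to 1.12) in the Mmp13-led cluster, and its interval held 0 in the others. Nog had 7.292 against 3.596 CPM from 37 and 16 UMIs in the C3-led cluster. Bmper had 12.81 against 7.641 CPM there and 33.61 against 15.89 CPM, from 41 and 17 UMIs, in the Eln-led one. In papilla and nail mesenchyme 1 of 4 was past it, Sostdc1, at 203.1 against 112.3 CPM (log2 ratio 0.86, interval 0.43 to 1.30) from 194 and 59 UMIs in 173 and 141 cells, where 10.8% of all genes were. Bmp4 there was 820.7 against 873.4 CPM (log2 ratio -0.09) and Bmp7 342.3 against 331.1. In osteoblasts 0 of 4 were past it, where 7.7% of all genes were, and Nog had 153.4 against 174.2 CPM (log2 ratio -0.18), but -1.09 with each library clustered alone.

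In 5 further classes of this pair 1 member was past 1.5-fold, and these contrasts too were chosen after their values were seen. Bmp5 was higher in LNR in synovial lining, at 4.674 against 2.551 CPM from 35 and 19 UMIs (1 of 7 members tested, where 4.69% of all genes were past it), and immune classes of LNR reached 5.645 CPM. It was also higher in the cluster led by Cxcl2, at 50.31 against 30.03 CPM from 67 and 27 UMIs (1 of 3, where 8.93% of all genes were). Bmp7 had 7.199 against 12.15 CPM in mural cells (1 of 6, where 6.26% were), with an interval that held 0. Sostdc1 had 18 against 31.66 CPM in monocytes and dendritic cells (1 of 2, where 8.48% were) and 10.72 against 39.46 CPM in lymphatic endothelium (1 of 2, where 6.53% were), levels within or below its immune range.

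**Figure D4:**
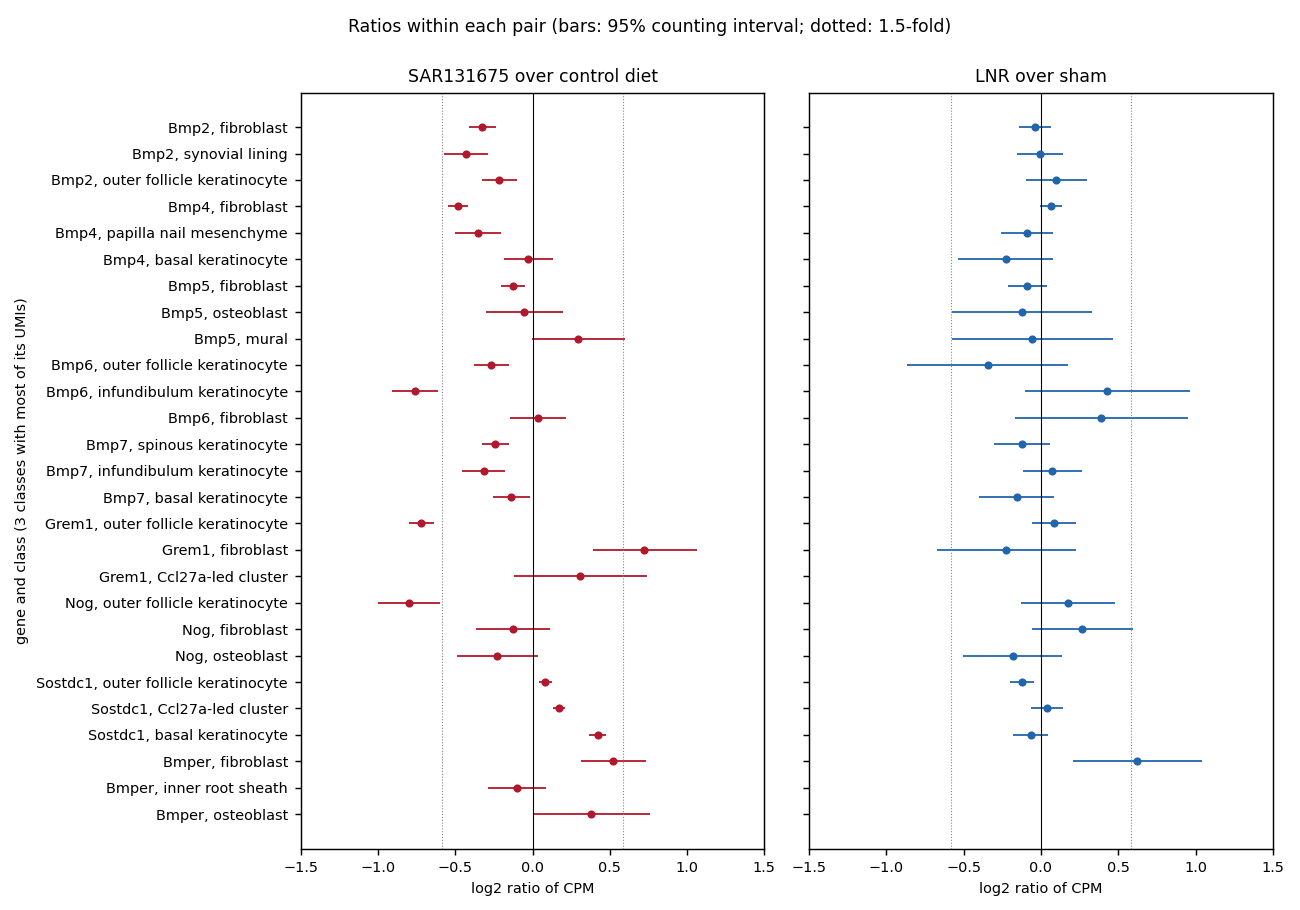
Log2 ratio of CPM for each member in the 3 classes that held most of its UMIs, SAR131675 over control diet on the left and LNR over sham on the right, with 95% counting intervals, where dotted lines mark 1.5-fold and a missing point had under 50 UMIs. On the left, Grem1 and Nog in outer follicle keratinocytes and Bmp6 in infundibulum keratinocytes lie past the lower line and Grem1 in fibroblasts past the upper one; on the right, Bmper in fibroblasts lies past the upper one.

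Ligand and antagonist UMIs were also counted cell by cell. In outer follicle keratinocytes, 40.5% of cells with a Bmp2 UMI also had a Grem1 UMI in SAR131675 (interval 37% to 44.1%), against 28.6% of cells without Bmp2, and 45.6% against 36.9% in control diet. In LNR the shares were 29.9% and 30.7%, and in sham 30.9% and 27.9%. With cells thinned to 1500 UMIs, the shares were 16.6% (interval 12% to 22.1%) against 11.1% in SAR131675 18.6% against 19.3% in control diet, 16.7% against 16.8% in LNR and 17.8% against 16.8% in sham. In osteoblasts, 59.6% of Bmp5-positive cells had Nog in SAR131675 (interval 49.5% to 69.1%) against 30.5% of the other cells, and 71% (58.1% to 81.8%) against 31.3% in control diet. In LNR these shares were 50.9% (37.1% to 64.6%) against 35.7%, and in sham 50% (35.8% to 64.2%) against 41.5%. After thinning, the osteoblast shares were 22% (10.6% to 37.6%) against 17.8% in SAR131675 and 47.6% (25.7% to 70.2%), from 21 Bmp5-positive cells, against 17.9% in control diet. In LNR they were 35% (15.4% to 59.2%) against 21.5%, and in sham 21.4% (4.66% to 50.8%) against 21.7%. In papilla and nail mesenchyme, Sostdc1 was found in 40.5% of Bmp4-positive and 12.5% of the other cells of SAR131675, and in 10% of both after thinning. At own depth the shares were 28.6% and 8.44% in control diet, 28.8% and 11.8% in LNR, and 21.4% and 13.2% in sham. After thinning they were 9.89% (4.62% to 17.9%) against 6.87% in control diet, 7.45% (3.05% to 14.7%) against 22.2% in LNR and 14.1% (6.64% to 25%) against 10% in sham. The part of depth in the shares at own depth was not tested.

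The other BMP pathway genes were a list of 48, of which 45 were tested over all cells in the first pair and 44 in the second. Between SAR131675 and control diet, 3 were past 1.5-fold higher and 0 lower, where 3.35% of all genes were past it higher and 3.44% lower, and the median log2 ratio was -0.0042 against -0.013 for all genes tested. The highest ratios were those of Gdf6, a joint ligand (0.359 against 0.158 CPM, log2 ratio 1.19), and Msx2, a homeobox target gene (12.8 against 6.645 CPM, 0.95), and the lowest ratios were those of Bmp8b, a ligand (-0.38), and Chrdl1, a chordin-like antagonist (-0.31). The third past the fold was Bambi, a decoy receptor (0.63), which the naming rule did not select. Msx2 and Bambi were highest in the inner root sheath class, at 167.1 against 157.6 and 159.2 against 152.2 CPM. That class, which also covered the hair and nail plate markers, held 1112 and 413 cells. Between LNR and sham, 0 were past it higher and 1 lower, where 2.4% of all genes were past it higher and 1.28% lower, with a median of 0.13 against 0.021 for all genes. The one was Sost, the osteocyte antagonist sclerostin (log2 ratio -1.05, 16 and 35 UMIs). Kcp (0.54), a chordin-like regulator, and Gdf6 (0.53) had the highest ratios, and Smad9 (-0.26) was the next lowest.

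For each role of the list of 48, which leaves out the members, the gene with the highest CPM over all kept cells was chosen to be named, without reading an order of expression from it. They were Gdf10 (ligand), Fstl1 (antagonist), Bmpr2 (receptor), Smad4 (transducer), Smurf2 (intracellular inhibitor) and Id3 (target). Bmpr2, the type II receptor, was highest in blood endothelium (292.8 to 643 CPM). Id3 was highest in mural cells, at 1298, 1101, 1372 and 1293 CPM in SAR131675, control diet, LNR and sham. In outer follicle keratinocytes, 33 genes of the list were tested in the first pair, with 1 past 1.5-fold higher (Bmp8a) and 2 lower (Smad9 and Acvr2b), where 2.76% of all genes were past it higher and 3.26% lower. With ratios centred on the median of all genes 1 was lower, Smad9. In the second pair 29 were tested, with 0 past it, where 2.74% of all genes were. These 3 were named after their values were seen. Id1, a direct target, had 338 and 335.1 CPM in the outer follicle of SAR131675 and control diet, and 543 and 534.2 CPM in LNR and sham.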

How the data were processed

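Raw UMI counts per gene and barcode were deposited by the authors for 4 droplet 3′ libraries, each from digits of 10 pooled mice. The submitters' processing notes name Cell Ranger 6.1.2 and GRCm39 for all, whereas the matrix headers of SAR131675 and control diet name 8.0.1. Whether intronic reads were counted is not given in the sources used here.

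Barcodes with 200 to 5500 genes, at most 30000 UMIs and at most 10% mitochondrial UMIs were kept. More than 5500 genes were found in 15.09%, 12.92%, 1.361% and 1.238% of all barcodes of SAR131675, control diet, LNR and sham. The upper limit on genes thus removed a larger share of the first pair. The cells of each pair were clustered together with scanpy 1.11.5 (2000 variable genes, 30 components, 20 neighbours, Leiden resolution 1.5), leaving out the members and 48 other BMP pathway genes. Clusters were named from 40 marker lists, some of which gave the same name. The hair and nail plate list, for example, gave the name inner root sheath. A name needed a mean marker score of at least 0.75 (log2, pseudocount 10 CPM), or 1.5 where none of its markers was among the 10 leading genes, with at least 3 detected markers and 50 cells. A cluster that scored highest as basal keratinocyte was named outer follicle where its outer follicle score was at least 1. A cluster was left unnamed where 1 library gave at least 90% of it, after scaling by library size. This naming rule was set after cluster scores and member values per cluster had been looked at. The members and lists were chosen with earlier results of these data known.

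UMIs of a class were summed per library and given as CPM with exact 95% Poisson intervals, ratios with exact conditional intervals and shares with exact Clopper-Pearson intervals (SciPy 1.17.1, NumPy 2.4.6, Python 3.11.15). All cover counting error only. With 1 library per condition no test was run. A gene was tested in a class, meaning compared with the fold of 1.5, where the pair held at least 50 of its UMIs. Cells were thinned to 1500 UMIs for shares at equal depth. The ratio code was tested on simulated data with known ratios. Scrublet called 4.67%, 0.907%, 7.41% and 6.97% of cells of SAR131675, control diet, LNR and sham doublets, and doublets were left in except in an alternative.

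Named were all 9 members, the 3 genes most like each over 25 classes among genes with at least 500 UMIs, for the pathway list the 2 highest and 2 lowest ratios in each pair and the gene with the highest CPM in each role, and contrasts of a member in the 3 classes with the most of its UMIs. Alternatives were resolutions 0.7 and 2.5, each library clustered alone, no upper limits, doublets removed, all kept cells, thinned cells, ratios centred on the median of all genes, and leaving out the cell with the most UMIs. Single clusters and leaving out the Krt71-led cluster were added after seeing the data. The share of all genes past 1.5-fold was not computed within single clusters of a class.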

Additional observations from a re-analysis of the deposited data

Results flagged for a closer look

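Members whose ratio passed 1.5-fold in opposite directions in different classes of the same pair are listed here, and in no case was the difference between the classes tested. Between SAR131675 and control diet, Grem1 had a log2 ratio of 0.72 in fibroblasts and -0.72 in outer follicle keratinocytes. Nog had 2.18 in blood endothelium, from 44 and 7 UMIs, and -0.80 in outer follicle keratinocytes. Bmp4 had 0.60 in the cluster led by Krt2, at 4.608 against 3.037 CPM, levels inside its range in immune classes, and -0.77 in blood endothelium. Sostdc1 had 2.83 in synovial lining, from 172 and 19 UMIs, and -1.01 in inner root sheath cells. Its CPM in synovial lining lay within or below its range in immune classes and was not read as expression, and in inner root sheath cells it lay inside the range over the immune classes of all 4 libraries, although above that of control diet alone. Between LNR and sham, Sostdc1 had 0.86 in papilla and nail mesenchyme and -1.88 in lymphatic endothelium, the latter from 13 and 44 UMIs and likewise within or below the immune range.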

How the results depend on the processing

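No paired analysis was possible because each condition had 1 library. Counting each named member in up to 3 classes, all kept cells moved 16 of 27 ratios of the first pair beyond the counting interval, thinning 15 of 27 and clustering each library alone 15 of 24 (the others had no such class). The cause was not tested for any value given here. Directions turned most often when each library was clustered alone. For SAR131675 over control diet that setting gave -0.60 for Bmp2 and -0.27 for Bmp5 in fibroblasts, -0.54 for Bmp6, -1.06 for Grem1 and -1.23 for Nog in outer follicle keratinocytes, and -0.15 for Bmp7 in spinous keratinocytes. It turned the direction of Sostdc1 in outer follicle keratinocytes (-0.23), Bmper in fibroblasts (-0.59) and Bmp4 in papilla and nail mesenchyme (0.62), and Bmper in inner root sheath cells, -0.10 with an interval that held 0, became 0.76. For LNR over sham it gave 0.11 for Bmp2, 0.40 for Bmp4 and 0.24 for Bmp5 in fibroblasts, and -1.43 for Bmp6, -0.61 for Grem1, -0.80 for Nog and -0.43 for Sostdc1 in outer follicle keratinocytes, so that Bmp2 and Bmp5 in fibroblasts and Grem1 and Nog in outer follicle keratinocytes, none of them past 1.5-fold as reported, changed sign. Over all kept cells, in place of the class, the first pair gave -0.035 for Bmp2, -0.20 for Bmp4, -0.076 for Bmp6, -0.12 for Bmp7, -0.070 for Grem1 (turning its direction in fibroblasts), -0.053 for Nog and 0.43 for Sostdc1, and the second 0.23 for Bmp2, 0.31 for Bmp4, 0.26 for Bmp5, 0.30 for Bmp6 and -0.0068 for Sostdc1. Thinned cells gave -0.56 for Bmp2, -0.58 for Bmp4 and 0.89 for Bmper in fibroblasts, -0.13 for Bmp7 in spinous keratinocytes, and -0.92 for Grem1 and -1.005 for Nog in outer follicle keratinocytes in the first pair, and -0.26 for Bmp5 in fibroblasts and -0.91 for Bmp6 in outer follicle keratinocytes in the second. Without upper limits, 5 of 24 ratios of the first pair and 0 of 24 of the second moved beyond the interval, among them Bmp4 in papilla and nail mesenchyme, which passed 1.5-fold at -0.69. Bmp5 in fibroblasts gave -0.21 and Grem1 in outer follicle keratinocytes -0.62 in the first pair. The mean Bmp2 level in mural cells, 142.1 CPM, was 120.7 CPM without upper limits and 161.6 CPM with called doublets removed, and that of Grem1 in outer follicle keratinocytes, 119 CPM, was 154.6 CPM with each library clustered alone. Between LNR and sham, 2 pathway genes passed 1.5-fold at a minimum of 10 UMIs and 0 at 200, against 1 at 50. Removing called doublets or the cell with the most UMIs left each of the 27 ratios of the first pair and 24 of the second within its counting interval. Bmper, Nog and Bmp6 in small classes rest on few UMIs, and the caller marked fewer doublets than the load predicts in every library.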
